A study of Mus musculus with 16 samples.

Results

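Voltage-gated calcium channels were examined in single sensory neurons of mouse dorsal root ganglia (DRG). The 10 genes followed here are the pore-forming subunits *Cacna1a*, *Cacna1b*, *Cacna1c*, *Cacna1d*, *Cacna1e*, *Cacna1g*, *Cacna1h* and *Cacna1i* and the auxiliary subunits *Cacna2d1* and *Cacna2d2*. They were taken by name from the 49671 genes of the count tables, and all 10 were found. The study set out to find what distinguishes proprioceptive sensory neurons (pSN) that connect to different muscles. At embryonic day (e) 15.5, 10 libraries of 96 wells each came from PvtdTom mice, a BAC line in which the parvalbumin promoter drives tdTomato. At postnatal day (p) 1, 6 libraries of 96 wells came from mice that the labels give as Trpv1Cre; PvFlp; Ai65 and as PvCre; Ai14. The study's methods name a pair of Cre lines behind the former, Trpv1Cre-Basbaum and Trpv1Cre-Hoon, so that 3 sets of mice were used, and the labels do not say which library holds which. In the Trpv1Cre; PvFlp; Ai65 mice tdTomato marks cells that have used both the Trpv1 and the Pv driver, and in the PvCre; Ai14 mice all cells that have used the Pv driver. The study reports that the mice with the Trpv1 driver label pSN of back muscles, and the other p1 mice all pSN. Thoracic and lumbar ganglia were used at both ages. By the study's methods each of the 3 sets gave 96 thoracic and 96 lumbar neurons, so that most p1 cells came from mice with the Trpv1 driver. The labels name fluorescence-activated sorting for every sample, while the study's text describes sorting at e15.5 and manual picking at p1. Age, mouse line, the mix of muscle targets that a line labels and way of isolation therefore cannot be told apart in any comparison between e15.5 and p1.

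Voltage-gated calcium channels open when the membrane depolarizes and let calcium into the neuron, where it triggers transmitter release, drives gene expression and opens potassium channels. The pore-forming α1 subunit sets the type of current. *Cacna1a*, *Cacna1b* and *Cacna1e* encode the P/Q-, N- and R-type channels, the first pair of which supply most of the calcium for transmitter release at synapses. *Cacna1c* and *Cacna1d* encode L-type channels, which couple activity to transcription. *Cacna1g*, *Cacna1h* and *Cacna1i* encode T-type channels, which open near the resting potential and shape firing. The α2δ subunits encoded by *Cacna2d1* and *Cacna2d2* raise the number of channels at the membrane and are the binding sites of the gabapentin drugs.

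A well was called a sensory neuron when it held at least 10000 unique molecular identifiers (UMIs, 1 for each captured transcript) and at least 100 CPM (UMIs of a gene per 1000000 UMIs) of *Avil* plus *Isl1*, genes of sensory neurons. Of the 960 wells at e15.5, 434 met this, and of the 576 at p1, 365. Those with at least 1000 CPM of collagen transcripts were set aside (64 at e15.5 and 11 at p1). Of the others, wells with at least 500 CPM of *Pvalb*, *Runx3* and *Etv1* together were taken as pSN (323 wells in 10 libraries at e15.5 and 348 wells in 6 libraries at p1). The remainder were taken as other sensory neurons (47 wells at e15.5, and 6 at p1, too few to compare). No well lay right at the cut: at e15.5 the highest well below it held 320 CPM and the lowest above it 521, and at p1 these were 446 and 711. A few wells lay near it on both sides: at e15.5, 4 held 250 to 500 CPM and 12 held 500 to 1000 CPM, and at p1 these counts were 3 and 9. None of the 10 channel genes was used to sort the wells.

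The labels call every sample proprioceptive sensory neurons. At e15.5, 368 of the 960 wells instead had at least 1000 CPM of collagen transcripts and under 100 CPM of *Avil* plus *Isl1* (called connective wells here), so that a library there held 9 to 71 pSN wells. At p1, library 3 held 11 pSN wells and the other 5 libraries 50 to 81. In pSN wells *Ntrk3*, a proprioceptor marker not used for the cut, stood at 1686 CPM at e15.5 and 1080 CPM at p1, against 486 CPM in other sensory neurons, all pooled over wells. By library, *Ntrk3* ranged from 1507 to 1821 CPM in e15.5 pSN and from 108 to 430.4 CPM in the other sensory neurons of 5 libraries, but reached 1640 CPM in those of library 10 (5 wells), within the pSN range. *Runx3*, used for the cut, was at 109 CPM there and at 0 to 6.92 CPM in the other 5 libraries. Leaving out library 10 changed no call among the 10 channel genes between the classes. Other sensory neurons held 976 CPM of a list of 7 nociceptor genes and 686 CPM of a list of 4 mechanoreceptor genes, of which *Mafa* was at 0. Libraries held 3701900 to 9299431 UMIs at e15.5 and 386517 to 8814472 at p1, the lowest being p1 library 3. The median pSN well held 117808 UMIs at e15.5 and 56238.5 at p1, and the median other sensory neuron well 82403.

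In pSN at e15.5 the α2δ subunit *Cacna2d1* was the highest of the 10 genes, at 307 ± 47 CPM (SD, n = 10 libraries), followed by the N-type pore *Cacna1b* at 203 ± 15 CPM and the P/Q-type pore *Cacna1a* at 129 ± 20 CPM. The library ranges of these first 3 did not overlap between *Cacna2d1* and *Cacna1b* or between *Cacna1b* and *Cacna1a*. *Cacna1h* (70.1 ± 12.8 CPM), *Cacna2d2* (54.6 ± 16.5), *Cacna1e* (30.8 ± 7.7), *Cacna1d* (25.9 ± 3.6) and *Cacna1c* (24.4 ± 6.9) came next, and each overlapped its neighbour in this order. *Cacna1i* (2.47 ± 0.93 CPM) and *Cacna1g* (0.806 ± 0.855 CPM) lay far below all others, and their ranges overlapped. CEL-Seq2 reads only the 3′ end of a transcript, so that levels were not scaled by length. How fully the 3′ end of each gene was captured and counted was not tested, so the order is one of counts. Together the 10 genes made up 848 ± 71 CPM in pSN at e15.5, 1027 ± 133 CPM in other sensory neurons (n = 6 libraries) and 713 ± 44 CPM in pSN at p1 (n = 6 libraries).

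**Figure D1:**
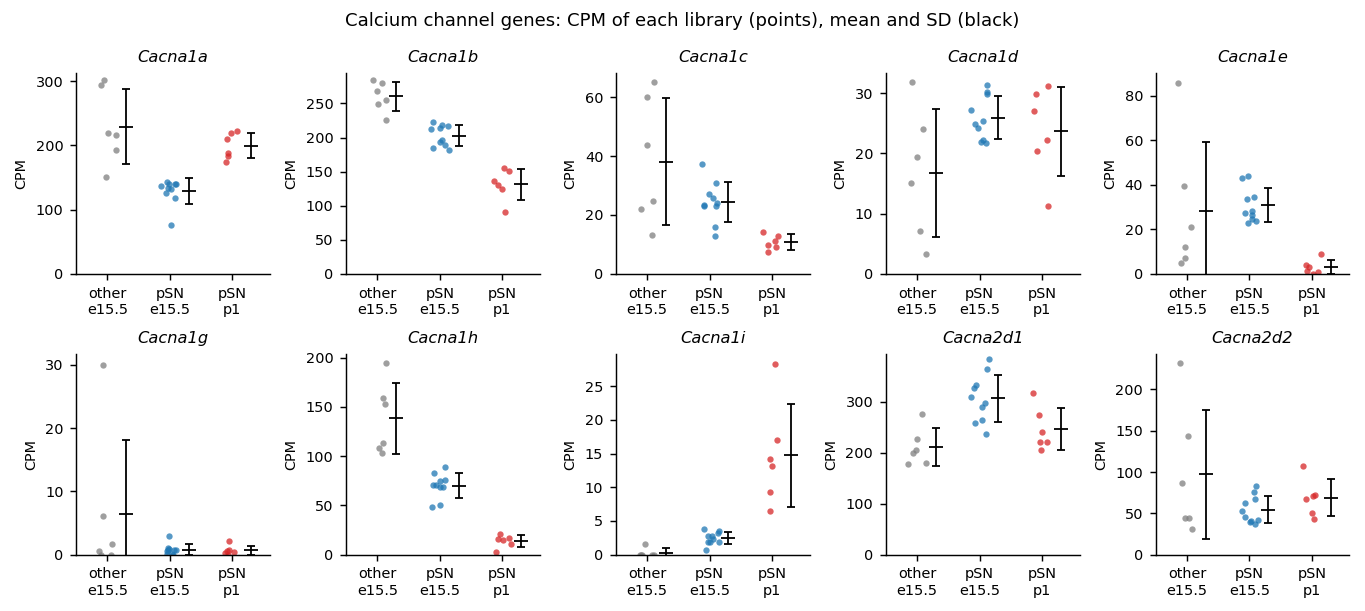
CPM of the 10 calcium channel genes in other sensory neurons at e15.5 (grey, 6 libraries), pSN at e15.5 (blue, 10 libraries) and pSN at p1 (red, 6 libraries). Each point is the summed wells of 1 library, and black bars give the mean and SD, drawn down to 0 at most. *Cacna1e* and *Cacna1h* at p1 lie below every e15.5 pSN library, *Cacna1i* at p1 lies above, and *Cacna1a* and *Cacna1b* of other sensory neurons lie above the pSN of the same age.

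At p1 the order changed below its first place. *Cacna2d1* still led with 247 ± 42 CPM, but its range overlapped that of *Cacna1a*, now second at 200 ± 20 CPM, and *Cacna1b* came next at 131 ± 23 CPM, below every library's *Cacna1a*. *Cacna2d2* (68.8 ± 22.4 CPM) overlapped *Cacna1b*. *Cacna1d* (23.6 ± 7.3 CPM), *Cacna1i* (14.7 ± 7.6), *Cacna1h* (13.8 ± 6.3), *Cacna1c* (10.8 ± 2.6) and *Cacna1e* (2.95 ± 3.23) followed in a chain of overlapping ranges, with *Cacna1g* last at 0.691 ± 0.7505 CPM. In other sensory neurons at e15.5 no neighbours in the order were separate: *Cacna1b* (260 ± 22 CPM), *Cacna1a* (229 ± 58) and *Cacna2d1* (212 ± 37) were at the top, *Cacna1h* followed at 139 ± 36 CPM, and *Cacna1g* and *Cacna1i* were at the bottom.

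To ask which channels distinguished pSN from the other sensory neurons at e15.5, the wells of each class were summed within the 6 libraries that held at least 3 wells of both (274 wells), and the classes were compared within libraries with edgeR. Of 10891 genes tested, 18.3% passed the threshold of an adjusted p of 0.05, 9.53% higher and 8.77% lower in pSN. Of the 10 channel genes 8 could be tested, and 4 passed: *Cacna2d1* was higher in pSN, and *Cacna1a*, *Cacna1b* and *Cacna1h* were lower. The median log2 fold change of the 8 was -0.45, beside -0.01 over all genes tested. *Cacna1g* and *Cacna1i* were left out for low counts.

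The presynaptic P/Q-type pore *Cacna1a* (chr8:84388440-84640246, + strand, GRCm38) stood at 76.8 to 140 CPM in pSN (median 139) and at 151 to 301 CPM in other sensory neurons (median 218) of the same 6 libraries. It was lower in pSN in every library, and the groups did not overlap. Its log2 fold change was -0.85 ± 0.15 (SE; adjusted p = 0.0029). The N-type pore *Cacna1b* (chr2:24603887-24763152, - strand) ranged from 185 to 223 CPM in pSN (median 213) and from 226 to 285 CPM in other sensory neurons (median 262). These ranges lay side by side without overlap, and the difference was small, -0.33 ± 0.08 on the log2 scale (adjusted p = 0.015). The R-type pore *Cacna1e* (chr1:154390731-154884501, - strand) ranged from 23.8 to 43.2 CPM in pSN (median 27.8) and from 4.93 to 85.7 CPM in other sensory neurons (median 16.6). The pSN values lay inside the wide range of the other neurons, and no difference was detected (log2 fold change 0.36 ± 0.43, adjusted p = 0.64).

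Among the T-type pores, *Cacna1h* (chr17:25374285-25433783, - strand) showed the largest tested difference of the 10 genes. It ranged from 48.0 to 89.5 CPM in pSN (median 69.4) and from 104 to 194 CPM in other sensory neurons (median 134), lower in pSN in all 6 libraries. The log2 fold change was -0.995 ± 0.168 (adjusted p = 0.0019). *Cacna1i* (chr15:80287238-80398279, + strand) stood at 1.89 to 3.79 CPM in pSN of the 6 libraries and at 0.702 to 3.79 CPM over all 10 e15.5 libraries. In other sensory neurons 1 UMI of it was counted over all 47 wells. Pooled over all wells, *Cacna1i* was at 2.83 CPM in pSN (95% exact Poisson interval 2.32 to 3.41) against 0.189 CPM (0.00478 to 1.05), intervals that cover counting error only. *Cacna1g* (chr11:94408391-94474198, - strand) gave 23 UMIs over 323 pSN wells and 17 over 47 wells of other sensory neurons. Of these 17, 10 came from library 4.

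The L-type pores did not pass here. *Cacna1c* (chr6:118587240-119196418, - strand) ranged from 12.8 to 27.1 CPM in pSN and from 13.1 to 65.2 CPM in other sensory neurons (log2 fold change -0.57 ± 0.32, adjusted p = 0.26). *Cacna1d* (chr14:30039939-30491455, - strand) ranged from 21.9 to 31.3 CPM in pSN and from 3.29 to 31.9 CPM in other sensory neurons, and was higher in pSN in 5 of 6 libraries (log2 fold change 0.75 ± 0.29, adjusted p = 0.099). The ranges of both genes overlapped widely between the classes. *Cacna1d* passed in 3 alternatives, with no filter on low counts (adjusted p = 0.015), with the pSN cut at 1000 CPM (adjusted p = 0.020) and with collagen-bearing wells kept (adjusted p = 0.038), and *Cacna1c* in the last of these alone (adjusted p = 0.049).

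The α2δ subunits went in different directions. *Cacna2d1* (chr5:15934691-16374511, + strand) ranged from 290.3 to 384 CPM in pSN (median 319) and from 179 to 277 CPM in other sensory neurons (median 203), and was higher in pSN in all 6 libraries without overlap (log2 fold change 0.61 ± 0.12, adjusted p = 0.0041). *Cacna2d2* (chr9:107399612-107529343, + strand) ranged from 37.7 to 83.0 CPM in pSN and from 31.1 to 232 CPM in other sensory neurons, with an estimate of -0.59 ± 0.26 that did not pass (adjusted p = 0.15), but did with no filter on low counts (adjusted p = 0.023) and with the pSN cut at 1000 CPM (adjusted p = 0.028). The other sensory neurons varied far more from library to library than the pSN for this gene, and they include only 3 to 12 wells in a library.

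Some of these values rest on which wells and libraries were counted. When the wells with collagen transcripts were kept, *Cacna1a* (log2 fold change -0.24, adjusted p = 0.58), *Cacna1b* (0.24, adjusted p = 0.54) and *Cacna1h* (-0.64, adjusted p = 0.065) no longer passed. That fit held 20 sums (434 wells) and the cut at 1000 CPM 16 sums (340 wells), in place of 12 sums (274 wells), so that further libraries entered both. *Cacna1b* also missed the threshold with no filter on low counts (adjusted p = 0.17), with the pSN cut at 1000 CPM (adjusted p = 0.09996), without wells of at least 500 CPM of glial transcripts (adjusted p = 0.069) and without library 9 (adjusted p = 0.051). When every well was thinned to 10000 UMIs, only *Cacna1a*, *Cacna1b* and *Cacna2d1* of the 10 genes could be tested. *Cacna1a* kept its call there, while *Cacna2d1* and *Cacna1b* missed the threshold (log2 fold changes 0.25 and 0.06). The difference of *Cacna1h* was thus not tested at equal depth. Summed glial markers (6 genes, none at 0) ranged from 124 to 787 CPM over pSN libraries and from 11.5 to 1387 CPM over those of other sensory neurons, and collagen and other connective tissue markers (6 genes, none at 0) from 24.1 to 252 and from 35.9 to 524 CPM. Their part in the differences was not tested. Blood genes (5 genes, none at 0) reached 22015 CPM in 1 library of other sensory neurons, and leaving out the wells that carried them changed no call among the 10 genes.

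Other sensory neurons at e15.5 were not alike. Of the 47 wells, 24 held more of the nociceptor list than of the mechanoreceptor list and 23 did not. By the same rule 196 of the 323 pSN wells at e15.5 held more of the nociceptor list, so the rule does not mark nociceptors alone. *Tac1* of that list was higher in pSN (107 CPM) than in other sensory neurons (65.9 CPM), while the whole list stood at 185 and 976 CPM, all pooled over wells. *Cacna2d2* stood at 168 CPM in the pooled nociceptor-marker wells (95% exact Poisson interval 152 to 185) and at 27.6 CPM in the mechanoreceptor-marker wells (21.9 to 34.3), with pSN between them at 51.2 CPM. *Cacna1e* was likewise at 49.6 CPM (41.0 to 59.5) and 14.0 CPM (10.02 to 18.95), and *Cacna1c* at 53.0 CPM (44.1 to 63.2) and 25.2 CPM (19.8 to 31.6). *Cacna1a*, *Cacna1b* and *Cacna1h* were close in the pair of groups (208 and 227 CPM, 257 and 249 CPM, 135 and 139 CPM), and above pSN in both. *Cacna2d1* was at 252 CPM and 190 CPM, below pSN (307 CPM) in both. These are pooled counts of few wells from few libraries, with no test.

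Next, pSN at p1 were set against pSN at e15.5, which came from another mouse line. A gene said to rise or fall is one higher or lower at p1, not one followed in the same population. The 10 e15.5 sums and 6 p1 sums were compared with edgeR over 13773 genes, of which 62.7% passed, 30.8% higher and 31.9% lower at p1. Of the 10 channel genes 9 could be tested, and 7 passed, 3 higher and 4 lower at p1, a share to be read against that background. The R-type pore *Cacna1e*, the T-type pore *Cacna1h*, the L-type pore *Cacna1c* and the N-type pore *Cacna1b* were lower at p1, while the T-type pore *Cacna1i*, the P/Q-type pore *Cacna1a* and the α2δ subunit *Cacna2d2* were higher. The median log2 fold change of the 9 was -0.12, beside -0.03 over all genes. Fold changes are on the scale of TMM normalization. With library totals alone the median of all genes shifted by -0.23, and 3038 genes were called higher and 6036 lower in place of 4236 and 4395.

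*Cacna1e*, which carries the R-type current, fell most. It ranged from 22.9 to 43.8 CPM at e15.5 (median 27.8) and from 0 to 8.85 CPM at p1 (median 2.08). Every p1 library lay below every e15.5 library, and p1 library 5 was the highest of the 6. The log2 fold change was -2.98 ± 0.36, or 7.92-fold lower (adjusted p = 6.6e-07), and -3.68 without p1 library 5. *Cacna1h* fell from 48.0 to 89.5 CPM at e15.5 (median 70.7) to 2.53 to 20.6 CPM at p1 (median 15.6), with no overlap, a log2 fold change of -2.13 ± 0.27 (4.38-fold, adjusted p = 1.2e-06).

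The T-type pore *Cacna1i* went the opposite way. It ranged from 0.702 to 3.79 CPM at e15.5 (median 2.50) and from 6.46 to 28.3 CPM at p1 (median 13.7). All 6 p1 libraries exceeded all 10 e15.5 libraries. The highest was p1 library 3, with 11 wells and 176499 UMIs over all genes, so that its value rests on few counts. The log2 fold change was 2.47 ± 0.26, or 5.53-fold higher (adjusted p = 8.5e-08). It was 2.36 to 2.64 over the fits that each left out 1 library. At p1 *Cacna1i* and *Cacna1h* were at like mean levels, 14.7 and 13.8 CPM, with overlapping ranges, whereas at e15.5 they stood at 2.47 and 70.1 CPM. *Cacna1g* stayed near its floor at both ages, with 23 UMIs at e15.5 and 17 at p1.

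Of the presynaptic pores, *Cacna1a* ranged from 76.8 to 143 CPM at e15.5 (median 136) and from 175 to 222 CPM at p1 (median 199), and rose by 0.86 ± 0.11 on the log2 scale (1.81-fold, adjusted p = 9.0e-07) with no overlap. *Cacna1b* ranged from 182 to 223 CPM at e15.5 (median 204) and from 90.7 to 156 CPM at p1 (median 133). The ranges did not overlap, and the log2 fold change was -0.34 ± 0.09 (1.27-fold lower, adjusted p = 0.0029). This call was lost with wells thinned to 10000 UMIs, where the log2 fold change was -0.03. In mean CPM *Cacna1b* exceeded *Cacna1a* at e15.5 (203 against 129), and at p1 *Cacna1a* exceeded *Cacna1b* (200 against 131).

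The L-type pores differed from each other. *Cacna1c* ranged from 12.8 to 37.2 CPM at e15.5 (median 23.8) and from 7.29 to 14.3 CPM at p1 (median 10.6), and fell by 0.93 ± 0.20 on the log2 scale (1.91-fold, adjusted p = 0.00042), although the lowest e15.5 library lay within the p1 range. *Cacna1d* ranged from 21.8 to 31.3 CPM at e15.5 (median 25.1) and from 11.3 to 31.1 CPM at p1 (median 24.6). No change was detected (log2 fold change 0.21 ± 0.13, adjusted p = 0.16), and its sign turned with library totals alone (-0.02) while thinned wells gave 0.61 (adjusted p = 0.041). The 3′ ends of *Cacna1d* and *Cacna1h* lie within 1 kb of or over *Chdh* and *Tpsg1* on the opposite strand. No source used here says whether counting used strand, so that reads of these pairs may not be fully told apart. *Cacna1c*, *Cacna1d* and *Cacna2d1* each also overlap 1 annotated gene on the same strand, the part of which was not tested.

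*Cacna2d1* ranged from 238 to 384 CPM at e15.5 (median 304) and from 206 to 317 CPM at p1 (median 231), and the groups overlapped. Its log2 fold change of -0.12 ± 0.10 did not pass (adjusted p = 0.32), but library totals alone gave -0.35 (adjusted p = 0.0090) and thinned wells 0.17 (adjusted p = 0.41). *Cacna2d2* ranged from 37.7 to 83.0 CPM at e15.5 (median 49.1) and from 43.4 to 108 CPM at p1 (median 69.4). Its groups overlapped too, and the log2 fold change of 0.46 ± 0.19 passed narrowly (1.37-fold higher, adjusted p = 0.038). The call held in 16 of 29 alternatives. Among those that lost it were library totals alone (0.22, adjusted p = 0.32) and 10 of the 16 fits that each left out 1 library (e15.5 libraries 3, 6, 7, 8, 9 and 10 and p1 libraries 3, 4, 5 and 6). Over these 16 fits the log2 fold changes were 0.39 to 0.56.

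Other measures were set beside the ages. Mitochondrial genes took 5.03% of pSN UMIs at e15.5 and 8.88% at p1. Summed glial markers ranged from 124 to 787 CPM at e15.5 and from 93.8 to 503 CPM at p1, so that the ages overlapped, and the 4 mechanoreceptor markers from 19.0 to 84.6 CPM (*Mafa* at 0) and from 149.7 to 222 CPM. The synaptic gene *Snap25* stood at 344 CPM at e15.5 and 1030 CPM at p1. The part of these in the changes was not tested. Leaving out the wells with glial transcripts, the wells with blood transcripts, or wells outside the study's quality quantiles changed no call among the 9 channel genes between the ages.

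**Figure D2:**
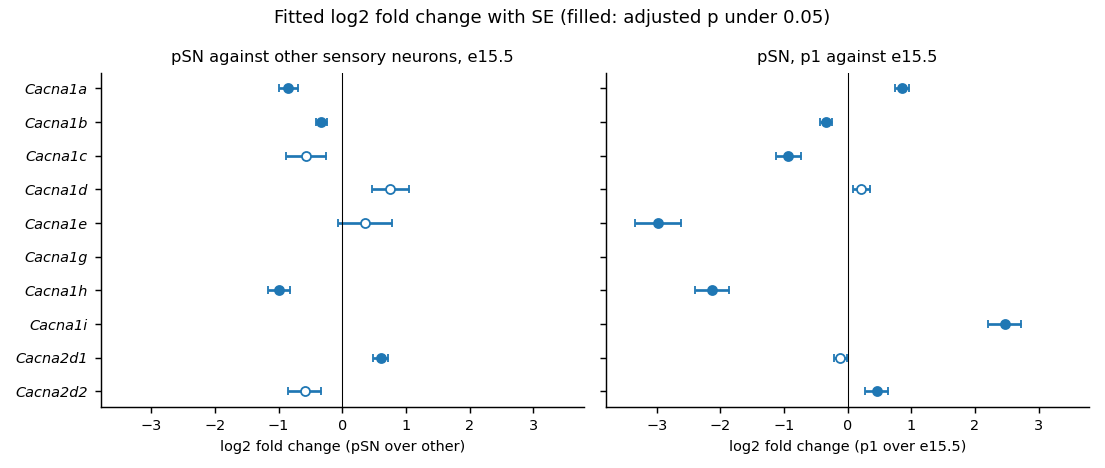
Fitted log2 fold change (x axis) of each calcium channel gene with its SE, for pSN against other sensory neurons at e15.5 (left, 8 genes tested) and for pSN at p1 against e15.5 (right, 9 genes tested). Filled points passed an adjusted p of 0.05; on the right *Cacna1e* (-2.98) and *Cacna1h* (-2.13) lie farthest to the left and *Cacna1i* (2.47) farthest to the right.

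The share of wells with a transcript was also counted over the pooled wells of all libraries. Its intervals treat wells as independent and leave out the spread between libraries, so they are no test between the ages. Each well was thinned to 10000 UMIs to compare wells of unlike depth, and the share in connective wells is given beside it (their median depth was 28177 UMIs before thinning). These wells hold several of the 10 genes themselves, so that their share is no measure of free RNA alone. *Cacna2d1* was found in 87.0% of pSN wells at e15.5 (95% exact binomial interval 82.8% to 90.5%) and 85.6% at p1 (81.5% to 89.2%), and in 39.7% of connective wells. *Cacna1b* was found in 82.0% (77.4% to 86.1%) and 70.7% (65.6% to 75.4%), and in 7.34% of connective wells. *Cacna1a* was found in 62.2% and 81.9%, and in 23.1% of connective wells.

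*Cacna1e* was found in 26.0% of thinned pSN wells at e15.5 (21.3% to 31.2%) and in 2.59% at p1 (1.19% to 4.85%). In connective wells at e15.5 the share was 11.4%. *Cacna1h* was found in 43.7% (38.2% to 49.3%) and 12.1% (8.84% to 16.0%), and in 10.9% of connective wells. *Cacna1i* was found in 2.79% (1.28% to 5.22%) and 12.9% (9.59% to 16.9%), and in 0.272% of connective wells (0.00688% to 1.505%). Unthinned, 69.7% of pSN wells at e15.5 and 12.9% at p1 held a UMI of *Cacna1e*, and 22.3% and 44.3% one of *Cacna1i*. *Cacna1g* was in 0.619% and 0.862% of thinned pSN wells and in 65.5% of connective wells.

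**Figure D3:**
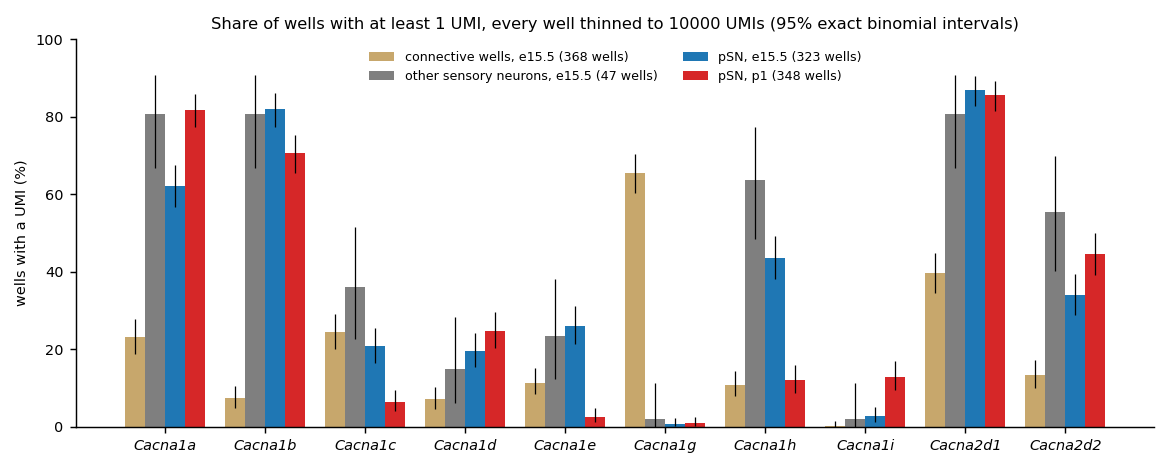
Percent of wells with at least 1 UMI (y axis) of each calcium channel gene after every well was thinned to 10000 UMIs, in connective wells (368), other sensory neurons (47) and pSN (323) at e15.5 and pSN (348) at p1, with 95% exact binomial intervals. The intervals treat wells as independent and leave out the spread between libraries. *Cacna1g* is the gene whose share is highest in connective wells (65.5%), while *Cacna1b* is found in 82.0% of e15.5 pSN wells and 7.34% of connective wells.

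Promoter windows are shown for the pair of pores that moved farthest in opposite directions, *Cacna1e* and *Cacna1i*, and for *Cacna2d1*, which was highest at both ages. Each window holds the 250 bases before and 50 after a RefSeq transcription start (GRCm38.p6), 5′ to 3′ on the gene's strand, with the GC box (GGGCGG, searched on both strands, overlapping copies included) in capitals. They lie at chr1:154725871-154726170 (- strand), chr15:80286988-80287287 (+ strand) and chr5:15934441-15934740 (+ strand). The *Cacna1e* window lies inside the GENCODE gene, downstream of its first annotated base.
Cacna1e: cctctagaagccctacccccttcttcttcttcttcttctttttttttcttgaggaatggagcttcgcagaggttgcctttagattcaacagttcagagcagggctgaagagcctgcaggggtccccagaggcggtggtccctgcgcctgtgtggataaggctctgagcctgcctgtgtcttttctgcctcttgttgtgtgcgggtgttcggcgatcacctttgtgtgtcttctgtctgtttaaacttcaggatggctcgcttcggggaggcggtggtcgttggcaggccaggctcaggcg
Cacna1i: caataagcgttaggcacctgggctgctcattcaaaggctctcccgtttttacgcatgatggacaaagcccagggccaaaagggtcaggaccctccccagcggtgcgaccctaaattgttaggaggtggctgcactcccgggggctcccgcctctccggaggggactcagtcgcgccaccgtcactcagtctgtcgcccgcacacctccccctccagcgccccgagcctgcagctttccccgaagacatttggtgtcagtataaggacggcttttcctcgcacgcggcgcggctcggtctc
Cacna2d1: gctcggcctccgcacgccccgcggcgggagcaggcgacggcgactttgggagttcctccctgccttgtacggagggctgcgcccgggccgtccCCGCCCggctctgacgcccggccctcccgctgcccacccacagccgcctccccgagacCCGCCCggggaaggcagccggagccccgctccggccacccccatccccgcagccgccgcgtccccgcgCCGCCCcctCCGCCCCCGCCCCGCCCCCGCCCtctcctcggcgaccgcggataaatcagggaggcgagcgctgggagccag
The *Cacna2d1* window is 80.0% GC with 42 CpG dinucleotides and 7 GC boxes, the *Cacna1i* window 62.7% GC with 23 CpG and the *Cacna1e* window 55.3% GC with 11 CpG, and neither of the latter holds a GC box. Over all 32851 windows of this length the median was 52.7% GC with 7 CpG, and 35.7% held a GC box. Windows were found for 7 of the 10 genes (10 windows, since *Cacna1c* and *Cacna1d* have several starts), of which 5 held a GC box. The Runx motif TGTGGT was in 1 of the 10 windows (a *Cacna1c* start) and in 16.8% of all windows, and the ETS motif CCGGAA was in 0 of 10 and in 14.9% of all. The CRE core TGACG was in 4 of 10 and in 20.8% of all, TATAAA in 1 of 10 and in 13.6% of all, and the E-box CACGTG in 0 of 10 and in 7.15% of all, each searched on both strands. These matches are a description of the letters.

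The auxiliary subunits that accompany the pores were taken from a list of 16 further subunit genes. β subunits bind the pore inside the cell and bring it to the membrane, and most γ subunits also serve as partners of AMPA-type glutamate receptors. Between e15.5 and p1, 9 of the 16 could be tested in pSN, and 5 were higher and 3 lower at p1, with a median log2 fold change of 0.77, beside 62.7% called and a median of -0.03 over all genes tested. *Cacnb3* led the β subunits at e15.5 and *Cacnb4* at p1. *Cacnb3* ranged from 147 to 215 CPM at e15.5 (median 176) and from 38.7 to 64.9 CPM at p1 (median 47.6; log2 fold change -1.57 ± 0.11, adjusted p = 3.3e-10). *Cacnb4* ranged from 49.0 to 67.9 CPM at e15.5 (median 60.7) and from 157 to 215 CPM at p1 (median 185; 1.86 ± 0.09, adjusted p = 1.6e-12). Neither gene's ranges overlapped between the ages. *Cacnb1*, the β subunit of skeletal muscle channels that neurons also make, fell by 1.83 ± 0.16 on the log2 scale (from 44.5 ± 8.7 CPM to 10.7 ± 2.0 CPM).

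*Cacna2d3*, a further α2δ subunit, rose from 2.51 ± 1.91 CPM to 13.0 ± 4.1 CPM (log2 fold change 2.62 ± 0.29, adjusted p = 2.3e-07), with an overlap between the highest e15.5 library (7.55 CPM) and the lowest p1 library (5.67 CPM). *Cacng4* went from 41.4 to 103 CPM at e15.5 to 0 to 20.7 CPM at p1, a log2 fold change of -2.52 ± 0.31 (adjusted p = 6.9e-07), and of -3.94 when wells with glial transcripts were left out. *Cacng7* rose from 10.9 ± 3.1 CPM to 20.2 ± 6.7 CPM (1.09 ± 0.21, adjusted p = 0.00018). *Cacna1f* and *Cacna1s*, the retinal and skeletal muscle pores, gave few UMIs in pSN. *Cacna1f* was at most at 0.346 CPM in a library of either age. *Cacna1s* stood at 11.3 CPM in p1 library 3, from 2 UMIs, at 0.350 to 0.596 CPM in the other 5 p1 libraries and at no more than 0.408 CPM at e15.5.

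At e15.5, 7 of these 16 genes could be compared between pSN and other sensory neurons, and 1 was higher and 2 lower in pSN (median log2 fold change -0.03), beside 18.3% called and a median of -0.01 over all genes tested. *Cacng5* ranged from 45.5 to 92.8 CPM in pSN (median 70.0) and from 8.21 to 15.2 CPM in other sensory neurons (median 12.3), higher in all 6 libraries by 2.51 ± 0.21 on the log2 scale (adjusted p = 1.7e-05). *Cacnb3* was lower in pSN in all 6 libraries (log2 fold change -0.54 ± 0.08, adjusted p = 0.00095), as was *Cacnb1* (-0.51 ± 0.15, adjusted p = 0.034), whose call was lost in 12 of 19 alternatives, among them without library 3, 4, 5 or 9. *Cacnb3* was lost with collagen-bearing wells kept (-0.04). *Cacna2d3* was left out for low counts, with 1.51 to 3.43 CPM in pSN and 4.55 to 46.0 CPM in other sensory neurons.

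**Figure D4:**
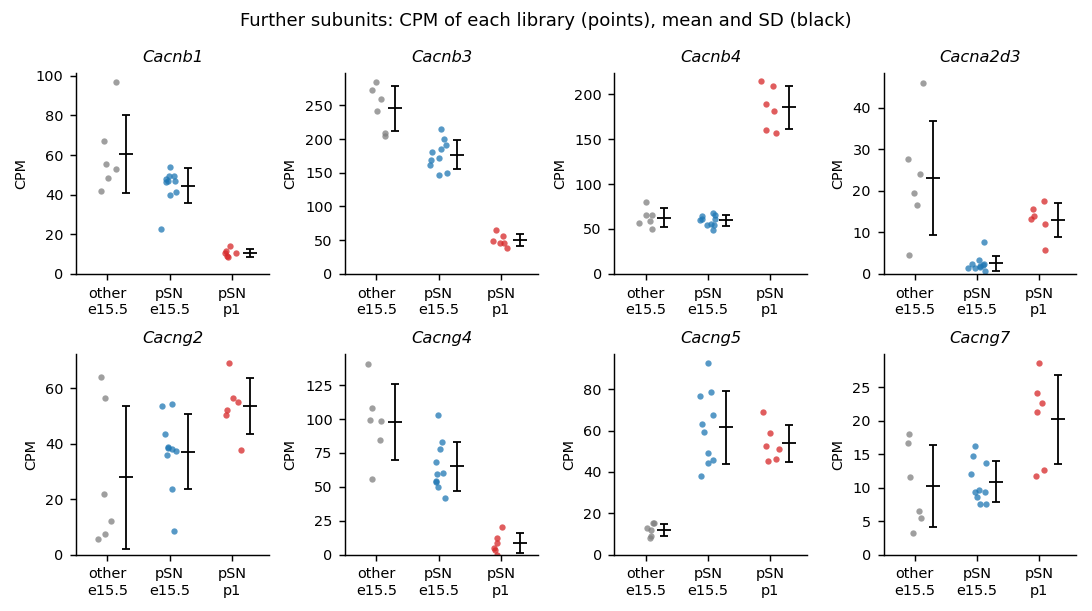
CPM of 8 further subunit genes in other sensory neurons at e15.5 (grey, 6 libraries), pSN at e15.5 (blue, 10 libraries) and pSN at p1 (red, 6 libraries), with 1 point per library and the mean and SD in black. *Cacnb3* and *Cacnb1* are high at e15.5 and *Cacnb4* at p1, and *Cacng5* is at 8.21 to 15.2 CPM in other sensory neurons.

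Proteins that hold channels at release sites or limit them were counted from a list of 12. Between the ages 9 were tested, with 3 higher and 2 lower at p1 and a median log2 fold change of 0.04 (62.7% called and -0.03 over all genes). *Rims1* and *Rims2*, active zone scaffolds, rose by 1.39 ± 0.12 and 1.01 ± 0.17 on the log2 scale (65.4 to 154 CPM and 33.9 to 54.9 CPM). *Stac2* rose by 1.05 ± 0.16 and *Stac* fell by 1.33 ± 0.17, both adaptors of L-type channels, and *Lrp1* fell by 0.76 ± 0.15. At e15.5, 8 of the list were tested, with 1 higher and 1 lower in pSN (median log2 fold change 0.02), against 18.3% called and -0.01 over all genes. *Rims1* was lower (-0.78 ± 0.11, adjusted p = 0.00074) and *Rimbp2*, which links RIMs to calcium channels, higher (1.19 ± 0.25, adjusted p = 0.0064). The *Rims1* call was lost with collagen-bearing wells kept (-0.25).

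Potassium channels opened by calcium formed a list of 7. At e15.5, 4 were tested and 2 were higher and 1 lower in pSN (median log2 fold change -0.24), where 18.3% of all genes were called with a median of -0.01. The small-conductance channel *Kcnn1* showed the largest difference, at 9.33 ± 3.24 CPM over the 10 pSN libraries and 62.9 ± 28.4 CPM over the 6 of other sensory neurons. Within the 6 libraries that held both classes the log2 fold change was -2.89 ± 0.19 (adjusted p = 5.8e-06). The large-conductance pore *Kcnma1* was higher in pSN by 0.97 ± 0.16 (adjusted p = 0.0021), as was its β subunit *Kcnmb4* by 0.87 ± 0.18 (adjusted p = 0.0059). Between the ages 5 were tested, 3 higher and 1 lower at p1 (median log2 fold change 0.67, with 62.7% called and -0.03 over all genes). *Kcnma1* rose further, from 75.8 ± 11 CPM to 131 ± 17 CPM (0.99 ± 0.09), while *Kcnmb4* fell from 97.9 ± 10.4 CPM to 30.7 ± 10.02 CPM (-1.56 ± 0.14). *Kcnn2* rose by 1.32 ± 0.36 and *Kcnn1* by 0.67 ± 0.26, the latter lost in 8 alternatives, among them without e15.5 library 7 or p1 library 1, 2 or 4.

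Calcium stores, pumps and exchangers, a list of 20, clear or release the calcium that enters. Between the ages 19 were tested, and 8 were higher and 4 lower at p1 (median log2 fold change 0.20), against 62.7% and -0.03 over all genes. All of the 6 with the largest changes were higher. They include 3 plasma membrane calcium pumps. *Atp2b3* went from 2.97 to 8.30 CPM at e15.5 to 40.1 to 73.7 CPM at p1 (log2 fold change 3.59 ± 0.19, adjusted p = 4.0e-12), *Atp2b2* from 171 ± 22 CPM to 561 ± 81 CPM (1.96 ± 0.10) and *Atp2b1* from 288 ± 54 CPM to 701 ± 83 CPM (1.51 ± 0.12). The sodium-calcium exchangers *Slc8a1* (2.36 ± 0.35) and *Slc8a3* (1.55 ± 0.17) and the ryanodine receptor *Ryr2* (1.56 ± 0.15) also rose. At e15.5, 13 were tested, and 2 were higher and 2 lower in pSN (median log2 fold change 0.29), against 18.3% and -0.01 over all genes. *Slc8a3* was higher by 1.58 ± 0.31 (adjusted p = 0.0045) and *Atp2b1* lower by 0.98 ± 0.09, with 199 to 370 CPM over the 10 pSN libraries and 468 to 696 CPM over those of other sensory neurons. The calls of *Itpr1* (0.94 ± 0.28) and *Atp2a2* (-0.29 ± 0.09) lay close to the threshold (adjusted p = 0.037 and 0.049), and each was lost without any 1 of 5 libraries (1, 3, 5, 9 or 10) and in other alternatives (7 of 19 in all for *Itpr1* and 12 of 20 for *Atp2a2*).

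**Figure D5:**
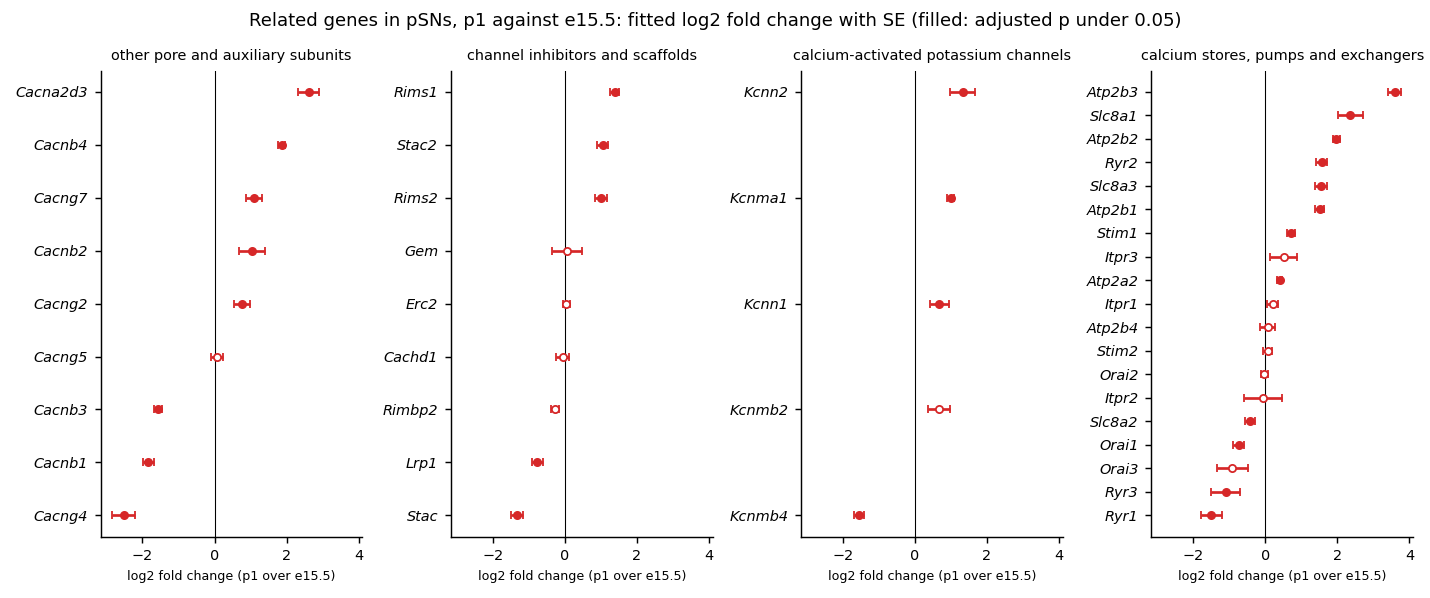
Fitted log2 fold change with SE (x axis) in pSN at p1 against e15.5 for the tested genes of the 4 related lists (9, 9, 5 and 19 genes). Filled points passed an adjusted p of 0.05; *Atp2b3* (3.59) and *Cacna2d3* (2.62) lie farthest to the right and *Cacng4* (-2.52) farthest to the left.

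Wells of pSN were also described by *Gabrg1* and *Tox*, the genes the study uses for presumptive limb and back types. At p1, *Cacna1h* stood at 4.90 CPM in the 102 wells with more *Gabrg1* than *Tox* and at 19.96 CPM in the 150 wells with more *Tox*, while *Cacna1e* stood at 6.42 and 1.02 CPM. At e15.5 these were 72.6 and 77.9 CPM for *Cacna1h* and 18.1 and 36.1 CPM for *Cacna1e* (69 and 160 wells), all pooled over wells and with no test. All 10 genes were counted in these groups. Only *Cacna1h* and *Cacna1e* are given, by no rule set beforehand, and their values do not speak for the other genes. By library, pSN at p1 ranged from 2.53 to 20.6 CPM for *Cacna1h* and from 0 to 8.85 CPM for *Cacna1e*. Since wells were pooled over libraries and the mouse line of each is unknown, these values cannot be told apart from differences between libraries or lines.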

How the data were processed

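Single cells of dissociated DRG were profiled with CEL-Seq2 (10 libraries of e15.5, 6 of p1). The authors mapped the reads (the labels name mm10 and GRCm38) and counted UMIs with scruff; the deposited values are these counts per gene and well, unfiltered, checked to be whole numbers. Ensembl IDs were matched to GENCODE M21 symbols (49326 of 49671; the others held 0.0617% of UMIs). The members and gene lists were chosen with earlier results of these data known.

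Wells were classed as described, and counts summed per library and class (at least 3 wells). Levels are CPM of a sum. No 2 wells were identical, and no library was a copy of another of its age (chi-square over degrees of freedom at least 6.31 at e15.5 and 3.88 at p1). Wells with 2 cells were not searched for. Nothing says which libraries share an animal, so that p-values measure the spread between libraries. The test was the quasi-likelihood F test of edgeR (version 4.0.16, R version 4.3.3) after filterByExpr and TMM scaling, with p-values adjusted by Benjamini and Hochberg's method over every gene tested and a threshold of 0.05, after the step was tested on simulated data. The SE is the log2 fold change divided by the root of F. For the e15.5 comparison the library was a block, since both sums of a library come from 1 preparation: their deviations from the class means correlated at 0.171 to 0.582 over 2000 genes. Intervals are exact. Poisson intervals of pooled CPM cover counting error only, and binomial intervals of the shares cover the sampling of wells only. Neither covers the spread between libraries.

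Named were all 10 members and, of each further list, at most the 6 genes with the largest change among those past the threshold. Alternatives were no filter on low counts, DESeq2 (version 1.42.0), RLE size factors, thinning to 10000 UMIs, sums of at least 5 wells, cuts of 250 and 1000 CPM, wells with at least 500 CPM of glial genes left out, the study's quality quantiles (0.3 for UMIs and genes, 0.75 for the mitochondrial share), collagen-bearing wells kept, the block dropped or added, and each library left out. Chosen after seeing the data were library totals alone, the block dropped over the same 12 sums, wells with at least 1000 CPM of blood genes left out, and collagen-bearing wells kept between the ages. Python (version 3.11.15), pandas (version 2.3.3), SciPy (version 1.17.1) and Matplotlib (version 3.10.9) were used. Promoter sequences are from RefSeq. Muscle targets and segmental levels were not analysed here.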

Additional observations from a re-analysis of the deposited data

Results flagged for a closer look

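Of 30 combinations of gene and group with 4 to 10 libraries, 5 had 1 library farther from the others than Dixon's test allows at 95%, where chance gives about 1 in 20. *Cacna1a* stood at 76.8 CPM in pSN of e15.5 library 3 (11 wells, 112 UMIs), below the other 9 libraries. *Cacna1g* stood at 3.02 CPM in pSN of e15.5 library 4 (4 UMIs), at 29.9 CPM in other sensory neurons of the same library (3 wells, 10 UMIs) and at 2.13 CPM in pSN of p1 library 4 (6 UMIs). *Cacna1i* stood at 1.64 CPM in other sensory neurons of e15.5 library 5, from 1 UMI, where the other 5 libraries had 0.

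Wells outside the comparisons also held channel transcripts. *Cacna1g* stood at 129.8 CPM in the 368 connective wells at e15.5 (1435 UMIs), against 0.602 CPM in pSN of the same age. *Cacna1e* stood at 187.9 CPM in the 69 wells at e15.5 that were below both the *Avil* plus *Isl1* and the collagen limits (268 UMIs), against 29.1 CPM in pSN.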

How the results depend on the processing

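Of 414 alternative log2 fold changes of the channel genes, 380 kept their direction and side of the threshold. The number of genes past it fell to 335 (from 1993) between pSN and other sensory neurons and to 4259 (from 8631) between the ages with wells thinned to 10000 UMIs, when fewer genes could be tested (2232 and 7594). Leaving out 1 library gave 1295 to 2037 and 8007 to 9068, the lowest without e15.5 library 3 and without p1 library 5; the cause was not tested. The summed level of the 10 genes in e15.5 pSN was 755 CPM in thinned wells and 765 CPM as a mean over wells, in place of 848. In p1 pSN it was 741 CPM in thinned wells and 741 CPM as a mean over wells, in place of 713. The cause was not tested. Signs turned for *Cacna1b* between the classes (0.0595 thinned and 0.24 with collagen-bearing wells kept) and, between the ages, for *Cacna1d* (-0.0173 with library totals alone) and *Cacna2d1* (0.17 thinned), none past the threshold; the cause was not tested.

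Without the replicate block, and with every library that held either class (16 sums, 11564 genes tested), 2719 genes passed between the classes, and of the named genes *Cacnb1* alone lost its call (adjusted p = 0.057). Without the block over the same 12 sums 1946 passed, and *Cacnb1* (adjusted p = 0.12) and *Atp2a2* (adjusted p = 0.069) lost their calls. With a replicate block between the ages 6761 passed, and the calls of *Cacna1b* (adjusted p = 0.052), *Cacna2d2* (adjusted p = 0.38) and *Kcnn1* (adjusted p = 0.097) were lost, while no other named call was. Library numbers there do not pair samples: same-numbered libraries correlated at -0.29 to 0.25.

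Between the classes *Cacna1g* and *Cacna1i* were left out by the filter on low counts, and other sensory neurons gave 47 wells.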

Other observations

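The wells set aside differed among themselves in calcium channels. In the 69 wells at e15.5 below both marker limits, *Cacna1a* stood at 249.6 CPM, *Cacna1e* at 187.9 CPM, *Cacna1b* at 168 CPM, *Cacna2d1* at 134 CPM and *Cacna1g* at 70.8 CPM, pooled over wells. After thinning, 84.1% of these wells held a UMI of *Cacna1a* and 46.4% one of *Cacna1e*. In connective wells *Cacna1g* (129.8 CPM) and *Cacna2d1* (64.1 CPM) were the highest of the 10, followed by *Cacna1c* (32.6 CPM) and *Cacna1a* (31.0 CPM), and *Cacna1i* gave 1 UMI over 368 wells.

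The 64 sensory neuron wells with collagen transcripts at e15.5 lay between connective wells and sensory neurons for several genes, with 74.2 CPM of *Cacna1a*, 56.3 CPM of *Cacna1b* and 49.0 CPM of *Cacna1g*. The 6 other sensory neuron wells at p1 held 379 CPM of *Cacna1a* (166 UMIs), 235 CPM of *Cacna1b* (103 UMIs) and 34.3 CPM of *Cacna1h* (15 UMIs). These are values of pooled wells, with no test.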
